A study of Oryza sativa Indica Group with 2 samples.

Results

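The 10 genes described here encode enzymes, transporters and a lipid transfer protein that build the pollen exine and the anther cuticle of rice. They were chosen by locus, as genes known for this pathway, from the 55337 loci of the analysed table. No expression value entered the rule, but the choice was made with earlier results of these data known. All 10 were present in the table, with a value above 0 in both libraries and a mean over the libraries of at least 10 FPKM (fragments per kilobase of transcript model, scaled by the mapped fragments of the library, which corrects for the length of the transcript and the size of the library). The genes are *CYP703A3* (LOC_Os08g03682), *CYP704B2* (LOC_Os03g07250), *DPW* (LOC_Os03g07140), *WDA1* (LOC_Os10g33250), *ABCG15* (LOC_Os06g40550), *ABCG26* (LOC_Os10g35180), *PKS1* (LOC_Os10g34360), *PKS2* (LOC_Os07g22850), *ACOS12* (LOC_Os04g24530) and *OsC6* (LOC_Os11g37280). By the locus numbers, 3 of them lie on chromosome 10, *DPW* and *CYP704B2* lie on chromosome 3 with 9 loci between them, and the others lie on 5 further chromosomes.

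The exine is the outer wall of the pollen grain. Its main polymer, sporopollenin, is made from fatty acid derivatives and phenolics that the tapetum, the innermost layer of the anther wall, synthesizes and secretes towards the developing microspores. In the tapetum, fatty acids are hydroxylated, reduced to alcohols or joined to coenzyme A and extended by polyketide synthases, and ABCG transporters and lipid transfer proteins carry the products out of the cell. The cuticle and waxes on the outer surface of the anther are made from related lipids. Loss of any of several of these genes leaves rice male sterile.

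Spikelets of young panicles of an *indica* rice gave 2 poly(A) RNA libraries, 1 from the *Osam1* mutant and 1 from wild-type plants. The wild type is the variety Zhongxian 3037, and the *Osam1* mutant was obtained from it by irradiation and carries a small deletion in *OsAM1* that introduces a premature stop codon. Pollen mother cells of the mutant stop in leptotene, before homologous chromosomes pair, and spikelets were taken while meiocytes were in prophase I, with spikelets of several panicles in each sample. Each genotype had 1 library, so no difference below has a replicate check and no p-value was computed. In whole spikelets, fewer cells of a type and less RNA per cell cannot be told apart.

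The submitters' labels decide which column of the table is which genotype, and these labels were kept. The column labelled *Osam1* is headed with a capital AA and the column labelled wild type with a small aa. For all 13 genes with a single transcript model whose direction the study lists, the labelled columns gave the opposite direction. The study also reports that qRT-PCR in other plants followed the patterns of its RNA-Seq for all the genes it examined. Those genes included LOC_Os03g44760. *OsAM1* itself (LOC_Os03g44760, a pairing known from the rice literature and not given by the reference table used here) stood at 3.76 FPKM in the *Osam1*-labelled library and at 15.1 FPKM in the wild-type-labelled one. Its transcript models went both ways, with model 2 at 1.87 FPKM against a value listed at 0, and models 3 to 5 at 0.63 FPKM each against 5.04 FPKM each. A small deletion need not remove the transcript, so these levels do not check the labels. The libraries are therefore called by their labels, and every direction below turns round if the columns were exchanged.

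Young panicle markers were present in both libraries. All 7 floral organ genes (*MADS1*, *MADS2*, *MADS3*, *MADS4*, *MADS16*, *MADS58* and *DL*) and all 7 meiocyte genes (*MEL1*, *PAIR1*, *PAIR2*, *PAIR3*, *ZEP1*, *REC8* and *MER3*) were above 0 in each. The meiocyte genes summed to 59.8 FPKM in the *Osam1*-labelled library and 48.1 FPKM in the wild-type-labelled library. They did not all go the same way. *ZEP1* had 16.9 FPKM and 6.6 FPKM, *MER3* had 1.48 FPKM and 3.98 FPKM, and the other 5 were within 2-fold. The floral organ genes summed to 943.0 FPKM and 646.7 FPKM. Among them, *DL* had 52.4 FPKM and 20.5 FPKM, *MADS58* had 38.4 FPKM and 18.3 FPKM, and the other 5 were within 2-fold. The 4 green tissue genes, for the small subunit of Rubisco and for chlorophyll-binding proteins, summed to 165.6 FPKM and 76.4 FPKM. Much of that gap was 1 transcript model, model 2 of the Rubisco gene LOC_Os12g19470, with 43.1 FPKM against a value listed at 0. Of the chlorophyll-binding genes, LOC_Os01g41710 was near even, with 21.45 FPKM and 18.5 FPKM, while LOC_Os09g17740 had 35.5 FPKM and 9.29 FPKM. The part of these other cell types in the differences below was not tested.

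Of the 10 exine and cuticle lipid genes, 9 were lower by 2-fold or more in the *Osam1*-labelled library and 0 were at least 2-fold higher, on the scale log2(FPKM + 1). The exception was *WDA1*, which was within 2-fold. Over all loci, 11.2% were at least 2-fold lower and 9.57% at least 2-fold higher. Most of those loci have low values, and among the 12947 loci that like these genes had a mean of at least 10 FPKM, 16.5% were lower and 13.1% were higher. The log2 ratios (*Osam1*-labelled over wild-type-labelled) ran from -2.72 to -0.20 with a median of -1.95, whereas the median was 0.04 over the loci at or above that mean and 0 over all loci. Added together, the 10 genes had 218.8 FPKM in the *Osam1*-labelled library and 798.1 FPKM in the wild-type-labelled library, a ratio of 3.65. *OsC6*, the most abundant of them, did not alone set this ratio, which was 3.12 without it.

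**Figure D1:**
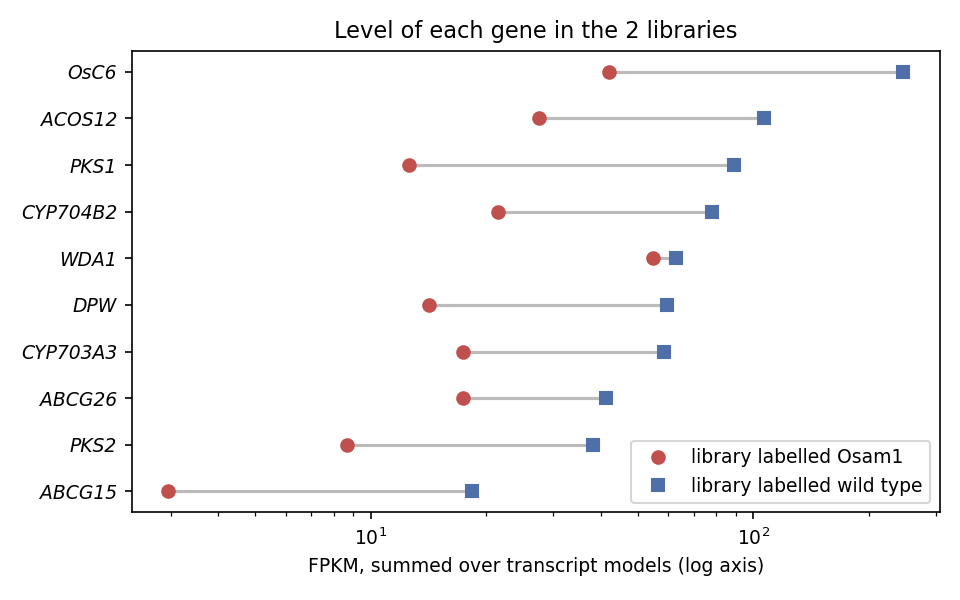
Level of each of the 10 genes in the library labelled *Osam1* (circles) and the library labelled wild type (squares), in FPKM on a log axis, ordered by the wild-type-labelled level. With transcript models summed, the square lies to the right of the circle for all 10 genes, and the gap is smallest for *WDA1*, with 54.5 FPKM and 62.7 FPKM.

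**Figure D2:**
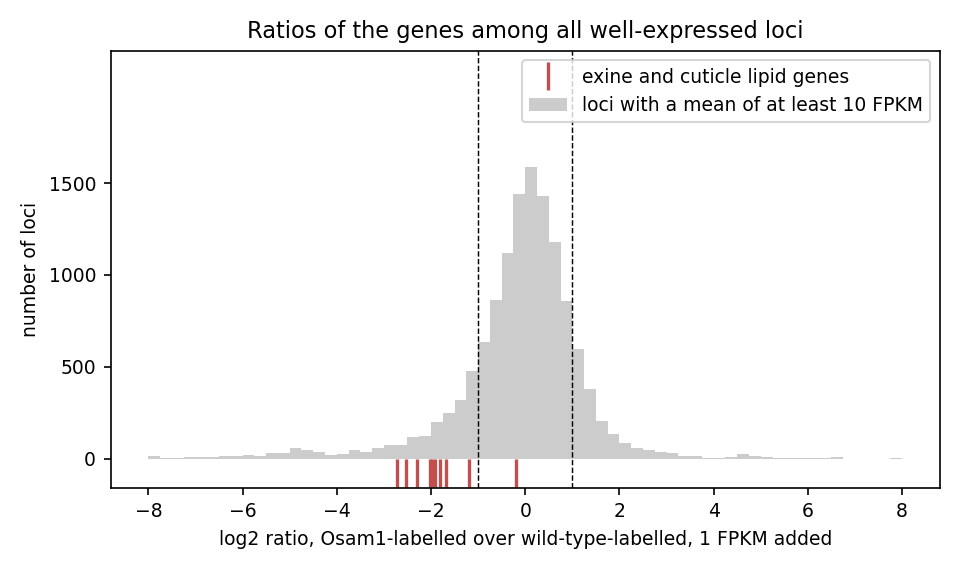
Number of loci by log2 ratio between the libraries, for the 12947 loci that averaged 10 FPKM or more (grey bars, ratios beyond 8 drawn at 8), with the 10 exine and cuticle lipid genes as red marks under the bars and 2-fold as dashed lines. Of the red marks, 9 lie to the left of the lower line, and *WDA1* lies between the lines at -0.20.

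The first steps of the pathway modify fatty acids. *CYP703A3*, a cytochrome P450 that hydroxylates fatty acids within the chain, had 17.5 FPKM in the *Osam1*-labelled library and 58.4 FPKM in the wild-type-labelled library, a log2 ratio of -1.69. *CYP704B2*, a cytochrome P450 of another family that hydroxylates the end of the chain, had 21.45 FPKM and 78.1 FPKM, a log2 ratio of -1.82. The level of *CYP704B2* was 1.23 times that of *CYP703A3* in the *Osam1*-labelled library and 1.34 times in the wild-type-labelled library, so the balance of the hydroxylases was much the same while both were lower in the former.

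*DPW*, a plastid enzyme that reduces fatty acyl chains bound to acyl carrier protein to fatty alcohols, had 14.2 FPKM in the *Osam1*-labelled library and 59.3 FPKM in the wild-type-labelled library. Its log2 ratio was -1.99. In the wild-type-labelled library its level differed from that of *CYP703A3* by a factor of 1.02, and in the *Osam1*-labelled library it was 0.81 times that of *CYP703A3*. The next locus along the chromosome, LOC_Os03g07150, carries the description male sterility protein in the study's listing and is given there as lower in the mutant. It had sums of 87.7 FPKM and 91.7 FPKM, and its transcript models went apart. Model 1 had 72.8 FPKM in the *Osam1*-labelled library and was listed at 0 in the wild-type-labelled library, while model 2 had 14.8 FPKM and 91.7 FPKM. How reads were divided between *DPW* and this neighbour was not tested. No other row of the table held the same pair of values as *DPW*, nor as any other of the 10 genes.

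*ACOS12*, a synthetase that joins fatty acids to coenzyme A and corresponds to *ACOS5* of *Arabidopsis*, has 2 transcript models. Model 1 had 27.6 FPKM in the *Osam1*-labelled library and 105.8 FPKM in the wild-type-labelled library, and model 2 had 0.96 FPKM in the latter alone. Together the models gave 27.6 FPKM and 106.7 FPKM and a log2 ratio of -1.91, and nearly all of this came from model 1.

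The polyketide synthases use the activated chains to make pyrones, and correspond to *LAP6* and *LAP5* of *Arabidopsis*. *PKS1* had 12.6 FPKM in the *Osam1*-labelled library and 89.1 FPKM in the wild-type-labelled library, and its log2 ratio of -2.72 was the lowest of the 10. *PKS2* had 8.66 FPKM and 38.15 FPKM, a log2 ratio of -2.02. Both were lower, but unequally. *PKS1* was at 2.34 times the level of *PKS2* in the wild-type-labelled library and at 1.46 times in the *Osam1*-labelled library.

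*ABCG15* and *ABCG26* encode half-size transporters of the ABCG family that export lipid precursors from the tapetum. *ABCG15* had 2.96 FPKM in the *Osam1*-labelled library and 18.4 FPKM in the wild-type-labelled library, a log2 ratio of -2.30, and was the lowest of the 10 in both. *ABCG26* had 17.5 FPKM and 41.2 FPKM. Its log2 ratio of -1.19 was the nearest to the 2-fold limit among the 9 lower genes. The level of *ABCG26* was 2.23 times that of *ABCG15* in the wild-type-labelled library and 5.91 times in the *Osam1*-labelled library, so the transporters differed more from each other in the latter.

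*OsC6*, a lipid transfer protein secreted from the tapetum to the anther locule and cuticle, had 41.9 FPKM in the *Osam1*-labelled library and 246.0 FPKM in the wild-type-labelled library. Its log2 ratio was -2.53. It was first of the 10 in the wild-type-labelled library, with 30.8% of their summed FPKM, and second in the *Osam1*-labelled library, with 19.1%.

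*WDA1*, needed for wax of the anther epidermis, has 3 transcript models. Their sums were 54.5 FPKM in the *Osam1*-labelled library and 62.7 FPKM in the wild-type-labelled library, a log2 ratio of -0.20. The models did not go the same way. Model 1 had 54.5 FPKM in the *Osam1*-labelled library and 37.6 FPKM in the wild-type-labelled library. Models 2 and 3 were listed at 0 in the former and had 23.4 FPKM and 1.73 FPKM in the latter. Taking model 1 in place of the sum turned the log2 ratio to 0.52, so no direction is given for *WDA1*. With its level nearly even, *WDA1* moved from the fifth place in the wild-type-labelled library, with 7.85% of their summed FPKM, to the first place in the *Osam1*-labelled library, with 24.9%. The wild-type-labelled total was 4.48 times the *Osam1*-labelled total for the 9 genes without it. Models of a locus that part in this way are common in the table. Of 4416 loci with several transcript models and a mean of at least 10 FPKM, 21.9% had a model at least 2-fold higher and another at least 2-fold lower.

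**Figure D3:**
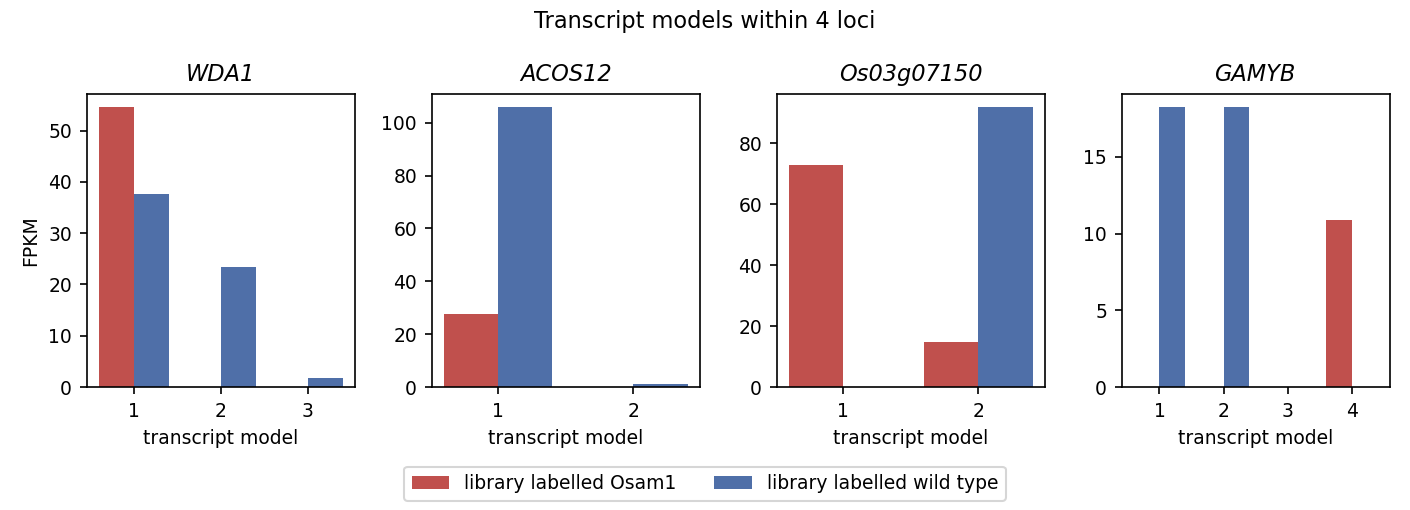
FPKM of each transcript model of *WDA1*, *ACOS12*, LOC_Os03g07150 and *GAMYB* in the library labelled *Osam1* (red bars) and the library labelled wild type (blue bars), with an axis of its own for each locus. At LOC_Os03g07150 the *Osam1*-labelled bar is the higher for model 1 and the lower for model 2, with 72.8 FPKM against 0 and 14.8 FPKM against 91.7 FPKM.

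The order of the 10 genes by level differed between the libraries, with *PKS2* and *ABCG15* in the last places in both. In the wild-type-labelled library the order from the highest was *OsC6*, *ACOS12*, *PKS1*, *CYP704B2*, *WDA1*, *DPW*, *CYP703A3*, *ABCG26*, *PKS2* and *ABCG15*. In the *Osam1*-labelled library it was *WDA1*, *OsC6*, *ACOS12*, *CYP704B2*, *ABCG26*, *CYP703A3*, *DPW*, *PKS1*, *PKS2* and *ABCG15*. *PKS1* thus went from the third place to the eighth. With 1 library each the spread of a level is unknown, and neighbours such as *ABCG26* and *CYP703A3*, both at 17.5 FPKM in the *Osam1*-labelled library, have no order that these data can settle.

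The table holds no reads, but low values of loci with 1 transcript model fall on steps, as whole reads would give. The commonest step was located among 4307 such loci and, where enough were found, read more finely from loci with higher values. By this step, 1 read was worth 2.37 times as much FPKM in the *Osam1*-labelled library as in the wild-type-labelled library. That makes the *Osam1*-labelled library the shallower. The read totals in the study put the *Osam1* library as the deeper, and this conflict, like the directions above, bears on which column is which genotype. The study's clean, mapped and uniquely matched totals each lie less than 2.37-fold apart. An exchange of the columns alone would therefore not make the ratios equal. The smallest numbers of whole reads that give the ratio of both values within rounding were sought for the 8 genes with 1 transcript model. They were 4 to 12 in the *Osam1*-labelled library and 59 to 153 in the wild-type-labelled library. Multiples of such a pair give the same ratio, so the true numbers are unknown and may be many times larger. Given this ratio of depths and whole reads, a 95% interval (exact Clopper-Pearson) from the smallest numbers is the widest that counting error allows. It ran from 1.26 to 4.79 for *ABCG26*, where the wild-type-labelled value was 2.36 times the *Osam1*-labelled value. It ran from 2.31 to 23.6 around a ratio of 6.23 for *ABCG15*, and from 3.32 to 17.9 around a ratio of 7.05 for *PKS1*. All 8 intervals lay above a ratio of 1. The intervals cover counting error alone, and neither PCR copies nor the spread between plants is in them.

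**Figure D4:**
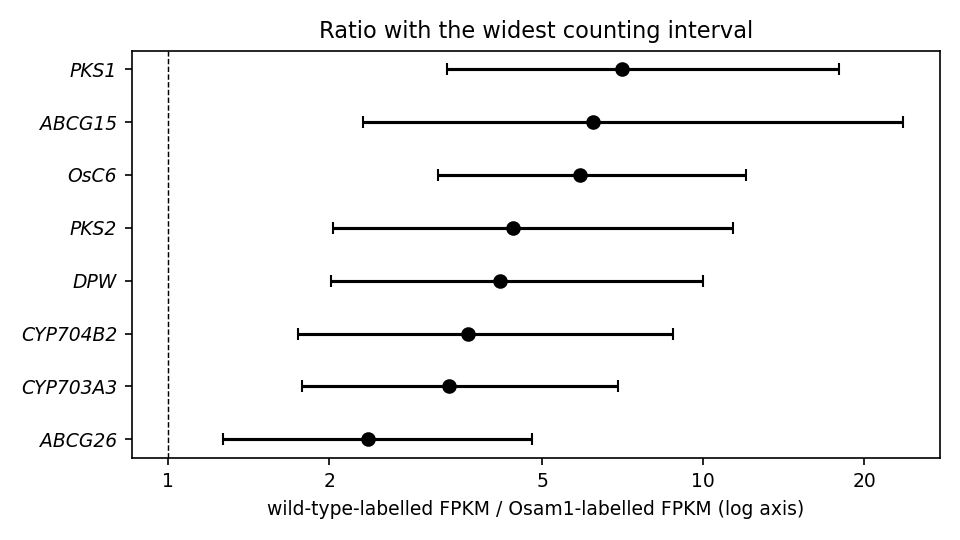
Ratio of the wild-type-labelled FPKM to the *Osam1*-labelled FPKM (points, log axis) for the 8 genes with 1 transcript model, with the widest 95% counting interval as bars and a ratio of 1 as a dashed line. The lowest lower end is that of *ABCG26*, at 1.26, and the highest ratio is that of *PKS1*, at 7.05.

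Further genes of sporopollenin, cuticle and wax formation were less uniform. Of 12 such loci, 11 were in the analysed rows, and *DPW2* was not analysed here. In the *Osam1*-labelled library 4 of the 11 were at least 2-fold lower and 0 at least 2-fold higher, beside 23.9% lower and 20.6% higher among all loci averaging 1 FPKM or more. Their median log2 ratio was -0.25. *OsC4*, an anther lipid transfer protein like *OsC6*, was listed at 0 in the *Osam1*-labelled library and had 134.7 FPKM in the wild-type-labelled library. *NP1*, an oxidoreductase needed for the exine, was listed at 0 and had 12.1 FPKM. *STRL2*, a strictosidine synthase-like protein needed for the exine, had 3.26 FPKM and 37.65 FPKM, a log2 ratio of -3.18. *TKPR2*, a reductase for the pyrones that the polyketide synthases make, had 27.4 FPKM and 99.4 FPKM, a log2 ratio of -1.82, beside -1.91 for *ACOS12* and -1.82 for *CYP704B2*.

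The other 7 were within 2-fold. *TKPR1*, the second pyrone reductase, had 39.2 FPKM in the *Osam1*-labelled library and 54.7 FPKM in the wild-type-labelled library, so the reductases were apart. *GPAT3*, an acyltransferase of glycerol phosphate, had 18.5 FPKM and 21.3 FPKM. *CER1*, for alkanes of the wax, had 48.5 FPKM and 54.5 FPKM, near even as the sum for *WDA1* was. *EDT1*, a subunit of ATP-citrate lyase that feeds acetyl-CoA to lipid synthesis, had 70.35 FPKM and 83.6 FPKM. *DEX1*, a calcium-binding protein needed for the exine, had 44.8 FPKM and 45.25 FPKM. *ABCG3*, another transporter of the tapetum, had 3.91 FPKM and 3.05 FPKM. The remaining locus was LOC_Os03g07150, beside *DPW*.

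Regulators of the tapetum were also measured. Of 7, 4 were at least 2-fold lower in the *Osam1*-labelled library, 1 was higher and 2 were within 2-fold, beside 23.9% lower and 20.6% higher among all loci averaging 1 FPKM or more. *PTC1*, among the 4, averaged below 1 FPKM. *TIP2*, *MYB80* and *PTC1* were listed at 0 in the *Osam1*-labelled library and had 17.2, 12.5 and 1.83 FPKM in the wild-type-labelled library. *TIP2* is a bHLH factor, *MYB80* a MYB factor and *PTC1* a PHD-finger protein. *GAMYB*, a MYB factor of gibberellin signalling known to act on *CYP703A3*, had sums of 10.9 FPKM and 36.4 FPKM, a log2 ratio of -1.66. Its models 1 and 2 had 18.2 FPKM each in the wild-type-labelled library alone, and model 4 had 10.9 FPKM in the *Osam1*-labelled library alone. The bHLH factor *TDR* had 17.4 FPKM and 33.4 FPKM, a log2 ratio of -0.90, and its partner *EAT1* had 32.4 FPKM and 41.8 FPKM, a log2 ratio of -0.36. *UDT1*, a bHLH factor that acts early in tapetum differentiation, went the other way, with 39.05 FPKM in the *Osam1*-labelled library and 5.79 FPKM in the wild-type-labelled library, a log2 ratio of 2.56.

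**Figure D5:**
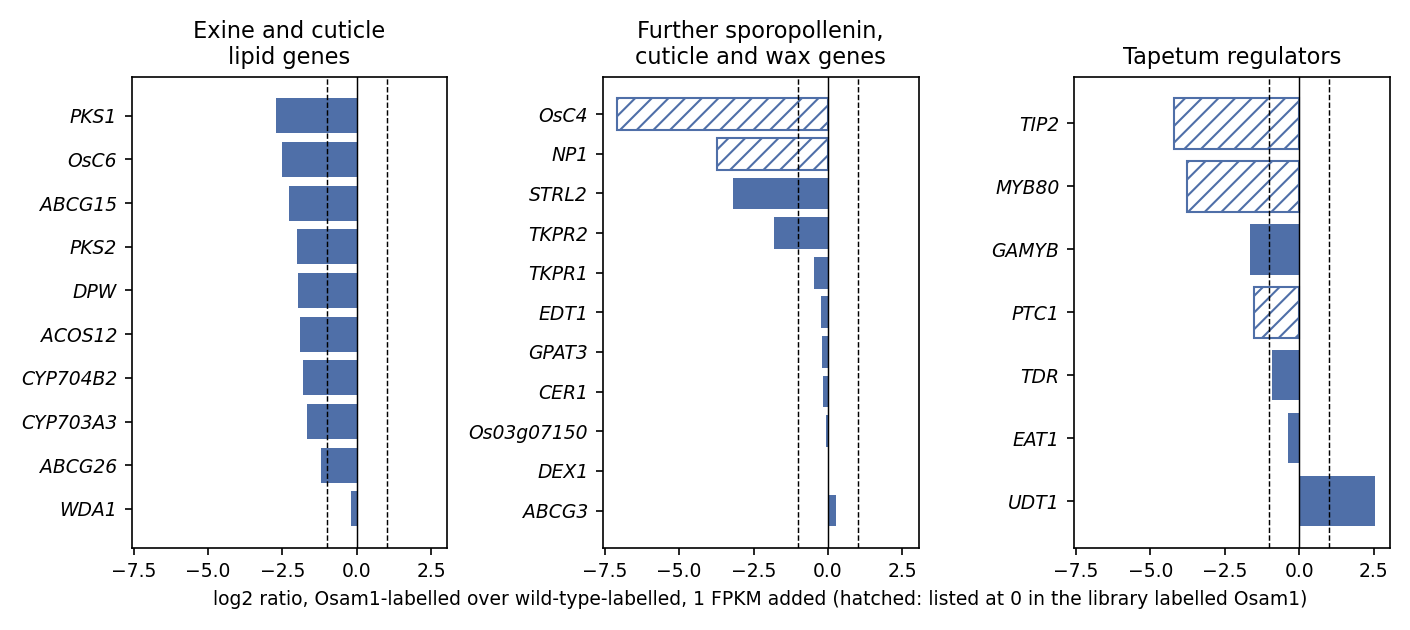
Log2 ratio between the libraries with 1 FPKM added, for the 10 exine and cuticle lipid genes, the 11 further pathway genes and the 7 tapetum regulators, with 2-fold as dashed lines and genes listed at 0 in the library labelled *Osam1* hatched. Bars to the left are lower in that library, and the only bar past 2-fold to the right is *UDT1*, at 2.56.

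Of 4 late products of the tapetum, *RTS* was listed at 0 in both libraries and *CP1*, a cysteine protease, was listed at 0 in the *Osam1*-labelled library and had 2.58 FPKM in the wild-type-labelled library. The aspartic proteases *AP37* and *AP25* went apart. *AP37* had 10.5 FPKM in the *Osam1*-labelled library and 37.6 FPKM in the wild-type-labelled library, while *AP25* had 213.4 FPKM and 103.7 FPKM. The lower level of the 9 genes thus did not extend to every gene known from the tapetum, and the part of the stage or the amount of tapetum in each library was not tested.

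The loci around the 10 genes were counted by the same rule. Among the 5 loci on each side of each gene, 47 averaged 1 FPKM or more. Of these, 8 (17.0%) were at least 2-fold lower and 7 (14.9%) at least 2-fold higher in the *Osam1*-labelled library, beside 23.9% and 20.6% of all loci at that mean. The median log2 ratio of a gene's neighbours was below 0 for 6 of the 10 genes and above 0 for 4, and ran from -0.86 around *OsC6*, with 3 such neighbours, to 0.61 around *ABCG15*, with 6.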

How the data were processed

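Poly(A) RNA of spikelets was sequenced as 1 library per genotype with a kit that does not keep the strand. The authors removed adaptor and low-quality reads, aligned the rest to the genome of the Rice Genome Annotation Project using SOAPaligner/soap2 and derived expression levels with ERANGE. The values they deposited are FPKM per transcript model with 2 decimals, while their methods name RPKM. The annotation release is not given in the sources used here. Only reads wholly inside exons were counted, and reads shared by copies or by overlapping genes could be assigned to either.

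The table has 65535 rows, the last of them on chromosome 12, and whether it holds the whole annotation was not tested. Where a locus has several transcript models (6369 of 55337 loci), their FPKM were added. A locus counted as lower or higher at an absolute log2 ratio of at least 1 after 1 FPKM was added. A single library per genotype allows no test. The 10 genes and all lists were chosen with earlier results of these data known. The text names all 10, the further pathway genes and regulators, and the markers. LOC_Os03g07150 stood in the pathway list as the neighbour of *DPW*. *OsAM1* is named although the reference table does not pair it with a locus.

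RefSeq's gene table (assembly ASM3414082v1) named 2 of the 10 genes by symbol or synonym, *CYP703A3* and *OsC6*, and the files name no build, so no coordinates are given and chromosomes are read from locus numbers. The depth step was located from *Osam1*-labelled values between 1 and 10 FPKM. It was refined on higher values near that step where enough were found. Whole reads were matched within rounding and 0.1%. The calls and intervals were tried on simulated data with counting error alone. The simulated loci had higher means than *ABCG15*, *PKS2* and *ABCG26*, so intervals at such means were not tested. The ratio of depths was given to the simulation, so the estimate from the steps was not tested either. Python 3.11.15, numpy 2.4.6, pandas 2.3.3, scipy 1.17.1 and matplotlib 3.10.9 were used.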

Additional observations from a re-analysis of the deposited data

How the results depend on the processing

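The alternatives were adding 0.1 or 0.01 FPKM in place of 1 FPKM, scaling by the median ratio (1.05) or the 75th percentile, the first listed transcript model, the model with the highest mean, a mean of at least 1 FPKM and values above 0 in both libraries. Under each of them 9 of the 10 genes were lower by 2-fold or more in the *Osam1*-labelled library. The filter on the mean and the filter on values above 0 kept all 10 genes with the same ratios, so they could not alter this count. With loci of 1 transcript model alone, chosen after seeing the data, it was 8 of 8. That choice only drops *WDA1* and *ACOS12* and leaves the other ratios as they were. The median log2 ratio ran from -2.02 to -1.94. The number of all loci at least 2-fold apart went from 11521 to 5669 when both values had to be above 0, since loci listed at 0 then drop out. Of the 10 genes, *WDA1* alone moved by more than 1.5-fold, to 0.52 with either choice of a single transcript model. With these choices *GAMYB* went from -1.66 to -4.26, and LOC_Os03g07150 (the neighbour of *DPW*) from -0.06 to 6.21 with the first model and -2.55 with the model of the highest mean. For genes listed at 0 in a library the ratio follows the added value, and *OsC4* went from -7.08 to -13.7. No paired analysis was possible because each genotype has 1 library, and no replicate could be left out.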
